A study of Mus musculus with 4 samples.

Results

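The 10 genes described here encode parts of the smooth muscle contractile apparatus: the actins Acta2 and Actg2, the myosin heavy chain Myh11, the tropomyosins Tpm1 and Tpm2, and the actin-associated proteins Tagln, Cnn1, Cnn2, Cald1 and Smtn. Members were the non-control spots whose gene name in the scanner files equals one of these symbols. All 10 genes were on the array, as 10 of 31829 gene names, 18 of 39429 probes and 27 of 43020 spots, and all 18 probes were well above background on all 4 arrays. Total RNA of mouse embryonic fibroblasts (MEFs) was hybridized to one-color Agilent mouse arrays, with 1 array for each of 4 conditions. These were wild-type (p53+/+) MEFs without treatment, wild-type (WT) MEFs treated with doxorubicin, a DNA damaging drug, p53-/- MEFs without treatment, and p53-/- MEFs treated with doxorubicin. The labels give neither the embryos nor the line of these MEFs, and for the arrays neither the labels nor the methods give a dose or a treatment time. With 1 array per condition there is no replicate check and no test. The 4 arrays shared 1 slide, so that the place on the slide and the condition cannot be told apart.

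In smooth muscle, myosin pulls on actin filaments that are lined by tropomyosin, and calponin and caldesmon bind these filaments and restrain the myosin. Fibroblasts in culture, MEFs among them, are known to switch on part of this gene program, with Acta2 in stress fibers as its best known sign. Many of these genes are controlled by serum response factor (SRF), which binds a DNA element called the CArG box and works with coactivators of the myocardin family.

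The probes and promoters that bear on the results are shown first. The Myh11 probe lies on chromosome 16 of mm9 at chr16:14202190-14202249 on the minus strand and is listed under transcript variant 2. It is shown because Myh11 changed most of the 10 genes.
Myh11 probe: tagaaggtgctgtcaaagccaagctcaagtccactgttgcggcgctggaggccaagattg
Of the 5 Tpm1 probes, those listed under variants 2 (chr9:66871166-66871225, minus strand) and 5 (chr9:66880274-66880333, minus strand) are shown because they read different stretches of the gene and gave different ratios.
Tpm1 variant 2 probe: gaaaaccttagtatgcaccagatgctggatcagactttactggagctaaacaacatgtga
Tpm1 variant 5 probe: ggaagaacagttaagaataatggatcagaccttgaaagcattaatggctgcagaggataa
No probes of different members shared a run of more than 9 bases.

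RefSeq promoter windows (assembly GRCm38.p6, 250 bases before to 50 bases after a listed start) were at hand for 7 of the 10 genes, in 8 windows. Actg2, Tagln and Myh11 had none. Cnn2 is shown, up to the listed start, because a full CArG box was found in it, and Acta2 as the best known of these genes, with a near match at 2 places. Capitals mark the 10 bases that match the CArG box, fully in Cnn2 and with 1 mismatch at each of the 2 places in Acta2.
Acta2 promoter, chr19:34255374-34255623, minus strand: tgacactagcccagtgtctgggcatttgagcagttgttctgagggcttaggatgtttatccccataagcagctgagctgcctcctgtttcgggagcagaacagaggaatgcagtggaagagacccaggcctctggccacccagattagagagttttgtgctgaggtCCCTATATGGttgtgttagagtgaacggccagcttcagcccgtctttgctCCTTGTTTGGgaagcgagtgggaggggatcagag
Cnn2 promoter, chr10:79988350-79988599, plus strand: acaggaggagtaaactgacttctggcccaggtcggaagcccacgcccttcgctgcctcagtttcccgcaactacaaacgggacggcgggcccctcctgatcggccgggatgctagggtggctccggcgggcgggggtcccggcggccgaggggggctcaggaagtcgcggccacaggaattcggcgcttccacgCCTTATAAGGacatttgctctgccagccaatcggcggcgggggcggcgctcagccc
The full CArG box, which reads the same on both strands, was found in 1 of the 8 windows of the members and in 1.63% of all 32851 windows. With 1 mismatch allowed, it was found in 4 of the 8 windows (Acta2, Cnn2, Tpm1 and 1 of the 2 windows of Cald1) and in 21.1% of all windows. The windows of Cnn1, Smtn, Tpm2 and the other window of Cald1 held no match. A match describes these letters and is not a measured binding site.

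Levels are given below as scaled signals, in which 1 is the signal at the 75th percentile of the probes on the same array. A log2 ratio is the difference of the log2 scaled signals of a pair of arrays. A gene stands for its probe with the highest mean, and is called higher or lower from a 2-fold difference. For 253 probes with 10 spots per array, the spots had an SD of 0.081 on the log2 scale, which makes 2 SD equal to 0.23 for a ratio of single spots and 0.33 for a difference of such ratios. This spread covers spots on an array and not separate cultures. As a check of the labels, the Trp53 probe had scaled signals of 0.592 (untreated) and 1.89 (doxorubicin) in WT MEFs, against 0.235 and 0.224 in p53-/- MEFs. The position of that probe relative to the targeted allele is not known here. In bulk RNA, fewer cells of a type and less RNA per cell cannot be told apart.

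The first question was how doxorubicin treatment changed the smooth muscle contractile genes. In WT MEFs, 3 of the 10 genes fell at least 2-fold (Myh11, Cnn1 and Actg2) and 0 rose. The background among 17546 genes measured on both WT arrays was 10.4% at least 2-fold lower and 11% at least 2-fold higher. In p53-/- MEFs, 5 of the 10 fell (Myh11, Cnn1, Actg2, Cnn2 and Cald1) and 0 rose. There the background among 16981 genes was 6.89% lower and 9.24% higher. The median log2 ratio of the 10 genes was -0.46 in WT and -0.92 in p53-/- MEFs, beside medians of 0.01 and 0.00 for all genes. Log2 ratios were below 0 for 9 of the 10 genes in each genotype, with Tpm1 as the exception in WT and Smtn in p53-/- MEFs. With each array scaled to its median, the median over all genes shifted to -0.27 (WT) and -0.30 (p53-/-). The 10 genes then had medians of -0.74 and -1.22, with 4 and 7 of them at least 2-fold lower, beside a background of 15.9% and 12.4%.

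**Figure D1:**
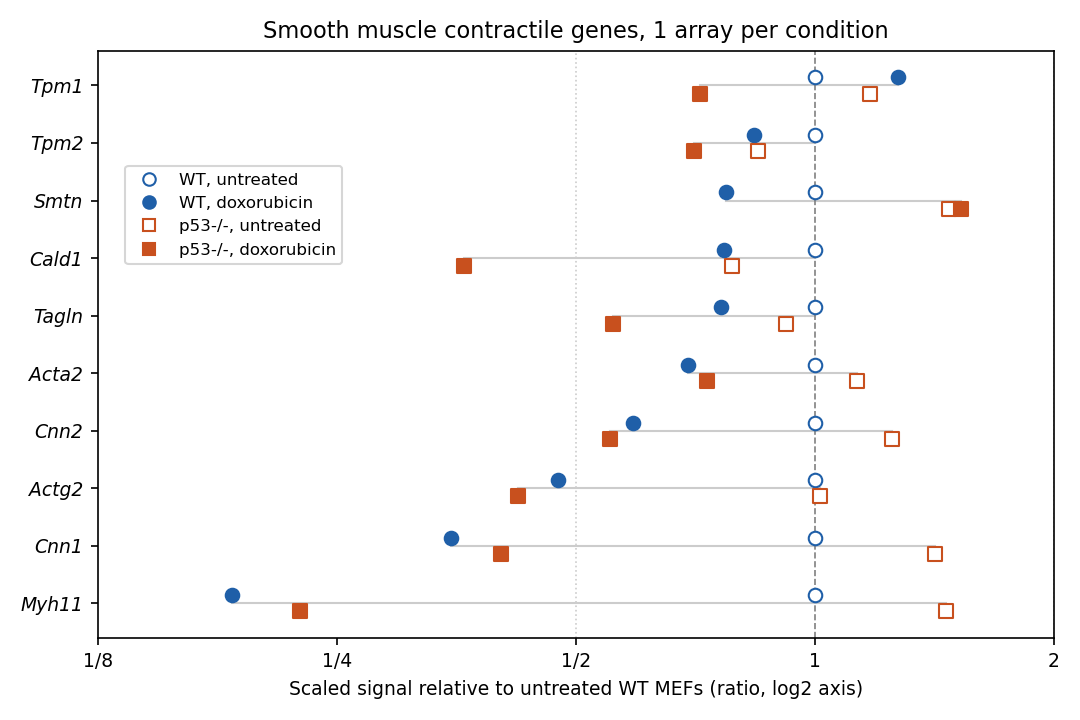
Scaled signal of each gene relative to untreated WT MEFs (x axis, ratio on a log2 axis; dotted lines, 2-fold), with 1 point for each of the 4 arrays and no error bars because there are no replicates. The filled symbols (doxorubicin) lie left of the open symbols of the same genotype for 9 of the 10 genes in each genotype. The exceptions are Tpm1 in WT and Smtn in p53-/- MEFs.

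Myh11, the motor protein of smooth muscle, changed most. Doxorubicin-treated MEFs had scaled signals of 0.107 (WT) and 0.131 (p53-/-), where untreated MEFs had 0.581 and 0.851. Both treated arrays were below both untreated arrays. The log2 ratio was -2.44 in WT (5.42-fold lower) and -2.70 in p53-/- MEFs (6.51-fold lower). In WT MEFs, 234 of 17546 measured genes had a lower ratio, and in p53-/- MEFs 35 of 16981 had one. These signals were low on their arrays, and the deposited signals of 195 and 316 on the treated arrays were still above the brightest negative control spots, at 77.5 and 120.

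Cnn1, or calponin 1, an actin-binding protein typical of differentiated smooth muscle, had scaled signals of 38.0 and 13.2 without and with doxorubicin in WT MEFs. In p53-/- MEFs these were 53.9 and 15.3. The treated arrays were again the lower in both genotypes, with log2 ratios of -1.52 and -1.82 (2.87-fold and 3.52-fold lower). Cnn2, the calponin that many cells other than muscle express, had 25.1 and 14.8 in WT MEFs, and 31.4 and 13.9 in p53-/- MEFs. Its log2 ratio was -0.76 in WT MEFs, short of 2-fold, and -1.18 in p53-/- MEFs. The second Cnn2 probe gave -0.94 and -1.15, so both probes fell on the same side of 2-fold in each genotype.

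The actins differed in size of change. Actg2, the smooth muscle actin of the gut wall and other viscera, had scaled signals of 72.8 and 34.6 without and with doxorubicin in WT MEFs, and of 74.0 and 30.8 in p53-/- MEFs. Its log2 ratios were -1.08 and -1.27, and the untreated arrays of the genotypes differed by only 0.02. Acta2, the smooth muscle actin of vessels and of myofibroblasts, had 216 and 149.9 in WT MEFs, and 244 and 158 in p53-/- MEFs. Its single probe was spotted 10 times on each array, with SDs between spots of 0.072 to 0.134 on the log2 scale. The log2 ratios of -0.53 and -0.63 had standard errors of 0.048 and 0.051 over spots, so that both exceeded the spread of the spots and neither reached 2-fold. The size of the Acta2 change in p53-/- MEFs depended on the normalization, since quantile normalization gave -0.23 there and -0.59 in WT MEFs.

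Tagln, also called SM22-alpha, an actin-binding protein used as an early smooth muscle marker, had scaled signals of 159 and 121 in WT MEFs, and of 147 and 88.8 in p53-/- MEFs. The log2 ratios of -0.39 and -0.72 did not reach 2-fold. Cald1, or caldesmon, which blocks the binding of myosin to actin, had 12.1 and 9.29 in WT MEFs, and 9.50 and 4.36 in p53-/- MEFs. Its log2 ratio was -0.38 in WT and -1.12 in p53-/- MEFs, and the second probe gave -0.42 and -1.11. The doxorubicin-treated p53-/- array was the lowest of the 4 for Tagln and for Cald1.

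Smtn, or smoothelin, an actin-associated protein of contractile smooth muscle cells, was ordered by genotype and not by treatment. Its scaled signals were 11.6 and 8.94 without and with doxorubicin in WT MEFs, and 17.1 and 17.7 in p53-/- MEFs. The log2 ratio in WT MEFs was -0.37. In p53-/- MEFs it was 0.05, within 2 SD of repeat spots, and it became -0.25 with scaling to the array median. The second Smtn probe gave -0.42 and -0.01. Tpm2, the beta-tropomyosin, moved least in WT MEFs, with scaled signals of 34.8 and 29.2 in WT and 29.6 and 24.6 in p53-/- MEFs. Its log2 ratios were -0.26 and -0.27, just over 2 SD of repeat spots, and its second probe gave -0.15 and -0.24.

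Tpm1, the alpha-tropomyosin gene, makes many transcript variants through alternative promoters and exons, and its 5 probes did not move together. The brightest probe, listed under variant 2, had scaled signals of 29.8 and 37.8 without and with doxorubicin in WT MEFs, and of 35.0 and 21.3 in p53-/- MEFs. It was highest in treated WT and lowest in treated p53-/- MEFs, with log2 ratios of 0.35 and -0.71. The variant 5 probe had scaled signals of 2.23 and 5.81 in WT MEFs, and of 4.16 and 3.43 in p53-/- MEFs. Its log2 ratio of 1.38 in WT MEFs was the only one at least 2-fold higher among the 18 probes, and it was -0.28 in p53-/- MEFs. The variant 9 probe, at chr9:66872131-66872190, gave 0.52 and -0.52. The probes listed under variant 1, which share 46 bases and so are not independent, gave -0.67 and -0.80 in WT MEFs, and -0.57 and -0.63 in p53-/- MEFs.

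The Tpm1 probes thus spanned 2.18 on the log2 scale in WT MEFs, and 9 of 544 genes with 3 or more measured probes (1.65%, Tpm1 included) had a range at least as wide. Their span in p53-/- MEFs was 0.43, against a median range of 0.40 over 519 such genes. The mean over the 5 probes was 0.16 in WT and -0.54 in p53-/- MEFs. Another probe, described as a tropomyosin alpha-1 chain but named by an Ensembl transcript, was outside the rule for members. It gave -0.49 in WT and -0.29 in p53-/- MEFs. A probe listed under a variant can also match other variants, so that these ratios are those of probes, not of variants.

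**Figure D2:**
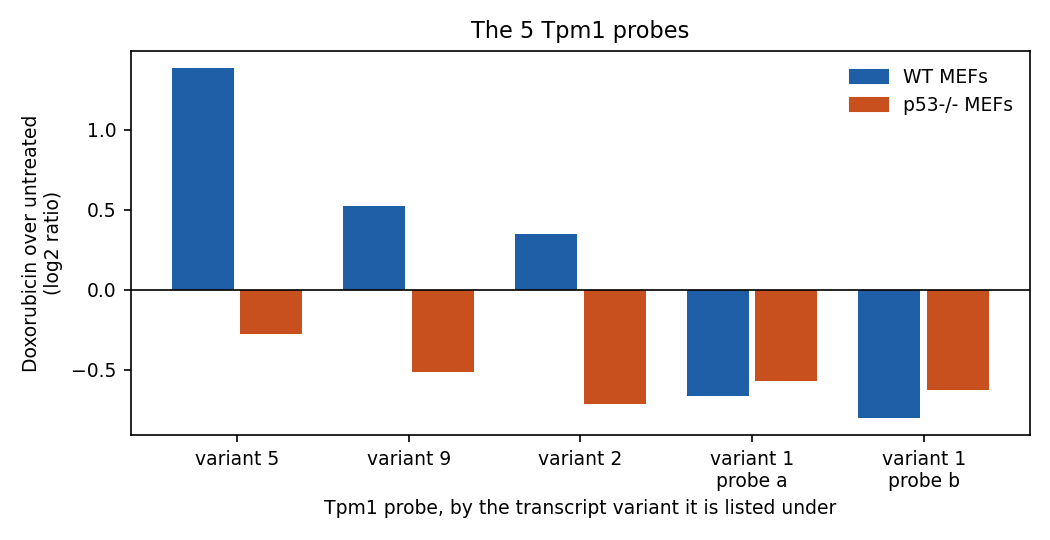
Log2 ratio of doxorubicin-treated over untreated MEFs (y axis) for the 5 Tpm1 probes, by the transcript variant under which each is listed, with 1 value per bar and no replicates. In WT MEFs the probes of variants 5, 9 and 2 lie above 0 (1.38, 0.52 and 0.35) and the overlapping probes of variant 1 lie below 0, while all 5 probes lie below 0 in p53-/- MEFs.

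The second question was whether the genotype mattered, first without doxorubicin. Between the untreated MEFs, 0 of the 10 genes differed 2-fold. The background among 17317 measured genes was 2.15% at least 2-fold higher and 2.62% at least 2-fold lower in p53-/- than in WT MEFs. Log2 ratios of p53-/- over WT MEFs ranged from -0.35 for Cald1 to 0.56 for Smtn, with a median of 0.20. Myh11 and Cnn1 were next to Smtn, at 0.55 and 0.50. For Acta2 (0.17), Actg2 (0.02) and Tagln (-0.12), the genotypes were within 2 SD of repeat spots. That limit is for single spots, and the Acta2 ratio, from 10 spots per array, had a standard error of 0.059 over spots.

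Between the doxorubicin-treated MEFs, 1 of the 10 genes was at least 2-fold lower in p53-/- than in WT MEFs, and 0 were at least 2-fold higher. The background among 17922 genes was 10.3% lower and 11.9% higher. The gene was Cald1, at a log2 ratio of -1.09. Tpm1 followed with -0.83 at its brightest probe. Its probes listed under variants 5 and 9 gave -0.76 and -0.82, while those under variant 1 gave 0.20 and 0.24. The mean over the 5 Tpm1 probes was -0.395. At the other end, Smtn had 0.98, short of 2-fold, and its second probe had 1.12. Acta2 (0.08), Actg2 (-0.17), Cnn1 (0.21) and Cnn2 (-0.10) were within 2 SD of repeat spots. The standard error of this Acta2 ratio over its 10 spots per array was 0.038. Quantile normalization placed Acta2 at 0.43 and turned the signs of Actg2 and Cnn2 to 0.02 each, so no direction can be given for Actg2 and Cnn2.

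The difference of the doxorubicin log2 ratios, WT minus p53-/-, was above 0 for 9 of the 10 genes (7 with quantile normalization), which means a lower ratio in p53-/- than in WT MEFs. The median was 0.28, beside 0.01 over 16538 genes measured on all 4 arrays. Only the difference of Tpm1 reached 2-fold, at 1.06, and 0 reached it below 0. The background was 8.38% above and 9.86% below. The mean over the 5 Tpm1 probes gave 0.70, under 2-fold, and the probes listed under variant 1 gave -0.17 and -0.10. Beyond 2 SD of repeat spots were also Cald1 (0.74), Cnn2 (0.42), Tagln (0.33, at that limit, and 0.13 with quantile normalization) and, in the opposite direction, Smtn (-0.42). The genes that fell most lay within that spread, with 0.26 for Myh11, 0.29 for Cnn1 and 0.19 for Actg2. For Acta2 the difference was 0.10 and turned to -0.35 with quantile normalization. None of these differences was tested.

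**Figure D3:**
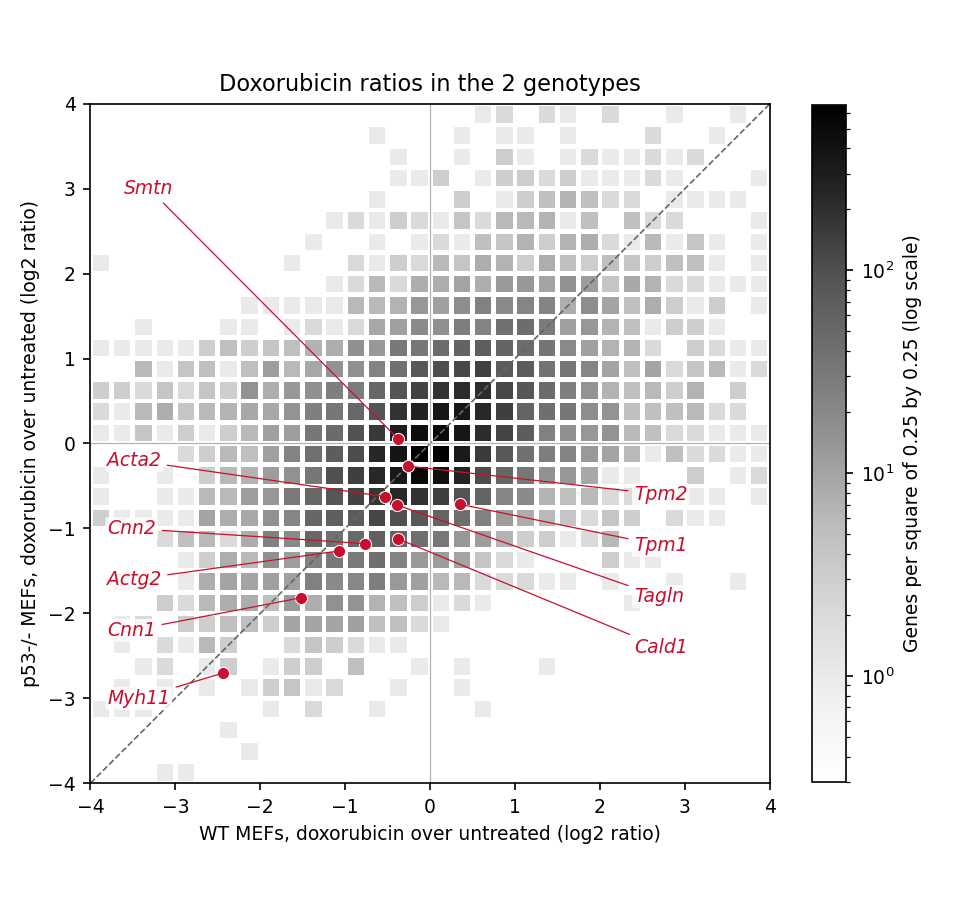
Log2 ratio of doxorubicin-treated over untreated MEFs in WT (x axis) and p53-/- MEFs (y axis), for 16538 genes measured on all 4 arrays as gray squares shaded by the number of genes (89 genes lie outside the axes) and for the 10 contractile genes as red points; the dashed line marks equal ratios. Myh11, Cnn1 and Actg2 lie near the line at the lower left, Cald1 and Tpm1 lie below it, and Smtn lies above it.

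For 4 members, the genes with the most similar pattern were searched among 16528 other genes measured on all 4 arrays, by the Euclidean distance of the 4 log2 values after centring each gene on its mean. Nearest to Acta2 were Cnot2 (distance 0.02), Zfp106 (0.03) and the entry named NAP063515-1 (0.04). Nearest to Tagln were Flna (0.03), Itsn2 (0.05) and Keap1 (0.06). These distances for Acta2 and Tagln are under the SD of repeat spots, 0.081, so which gene ranked nearest lies within that spread. Flna encodes filamin A, which crosslinks actin, and had -0.40 (WT) and -0.76 (p53-/-) as log2 ratios. Nearest to Cnn1 were Mipol1 (0.08), an entry named by an Ensembl transcript (0.08) and Nhsl2 (0.10). Myh11 had no neighbor as near, with Adm2 at 0.29, Soat2 at 0.42 and Bcat1 at 0.46.

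A list of 20 other smooth muscle genes was read in the same way. In WT MEFs, 4 of the 20 were at least 2-fold lower and 2 at least 2-fold higher, beside 10.4% and 11% of all genes, and the median log2 ratio was -0.65. For p53-/- MEFs, 8 of 18 measured genes were lower and 0 were higher, beside 6.89% and 9.24% of all genes, with a median of -0.85. Mylk, the kinase that switches on smooth muscle myosin, fell in both genotypes, at -1.90 and -2.64. Myl9, the myosin light chain that it phosphorylates, had -0.66 and -1.12. Lmod1, which starts actin filaments, had -0.75 in WT MEFs, and in p53-/- MEFs it was at least 2.03-fold lower, since it was not well above background after treatment. Kcnmb1, a potassium channel subunit, had -0.61 in WT MEFs. In p53-/- MEFs Kcnmb1 too was not well above background after treatment, and its scaled signal was 2.1-fold lower than without treatment. Untreated p53-/- MEFs gave deposited signals of 137 for Lmod1 and 188 for Kcnmb1, below the brightest negative control spot there, at 250.1.

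Of the genes in this list measured on all 4 arrays, Ppp1r14a, Synm and Pdlim3 had the largest differences between genotypes. Ppp1r14a, an inhibitor of myosin phosphatase, had a log2 ratio of 2.70 with and -1.31 without p53. Synm, the intermediate filament protein synemin, had 2.43 and 0.33, and its 2 other probes measured on all 4 arrays gave 2.37 and 2.72 in WT MEFs. A Synm probe well above background on 2 arrays gave 0.02 there, and a Synm probe well above background on 1 array gave 3.46. Pdlim3, a protein of actin and alpha-actinin structures, had -1.33 and 0.74. These 3 differences were 4.01, 2.10 and -2.06, each larger in size than that of any of the 10 contractile genes.

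SRF itself and the factors that work with it were measured for 14 of 15 genes in each genotype. In WT MEFs, 1 of the 14 was at least 2-fold higher and 0 were lower, beside 11% and 10.4% of all genes. The median log2 ratio was 0.11. Without p53, 2 were higher and 3 lower, beside 9.24% and 6.89% of all genes, with a median of -0.29. Srf had -0.28 in WT and -1.36 in p53-/- MEFs, while its second probe gave -0.05 and -0.64, so that the 2-fold call rests on 1 of 2 probes. Mkl1, the SRF coactivator MRTF-A, had -0.08 and -1.02, and its second probe gave 0.09 and -1.16. Mkl2, or MRTF-B, had -0.08 and -0.59. Another Mkl2 probe, well above background on 2 arrays, gave 2.03 and 2.06 on deposited signals of 41.4 to 244.5. A further one was well above background on no array. Myocd, or myocardin, had 0.33 and 0.54, and was higher in p53-/- than in WT MEFs both without (1.89) and with doxorubicin (2.09). Its deposited signal of 173 in untreated WT MEFs was low, beside 108 for the brightest negative control spot.

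Among the ternary complex factors, which share SRF with the myocardin family, Elk1 had 0.13 and -0.35, Elk3 had 0.38 and -0.29, and Elk4 had 0.46 and 0.49. The other probes of Elk3 gave -0.21 and 0.17 in WT, and -0.52 and -0.56 in p53-/- MEFs. Those of Elk4 gave 0.56 and 0.61 in WT, and 0.43 and -0.59 in p53-/- MEFs, so that the sign differed between probes for Elk3 in WT and for Elk4 in p53-/- MEFs. For Elk1, the probe used had deposited signals of 413440 to 440908, while the second probe had 67.8 to 99.2. That second probe was well above background on 1 of the 4 arrays. The probes thus disagreed on the level of Elk1, and its ratios are those of 1 probe. Tead1, a factor of the Hippo pathway, had -0.98 in WT and -1.89 in p53-/- MEFs, and its other probes gave -0.35 and -0.22 in WT, and -1.25 and -1.97 in p53-/- MEFs. Tead4 had 0.67 and 0.70. Klf4, a repressor of smooth muscle genes, had 0.49 and 1.29. Klf5, a factor of proliferating smooth muscle, rose in both genotypes, at 2.13 and 1.89. Gata6 had -0.48 and -0.53, and was higher in p53-/- than in WT MEFs without doxorubicin (1.09) and with it (1.04). Mef2a had 0.09 and -0.30, and its second probe -0.21 and -0.79. Mef2d had -0.19 and -0.21, and its second probe 0.55 and -0.15. Mef2c was not well above background after treatment, and was at least 2.33-fold lower in WT and 3.08-fold lower in p53-/- MEFs.

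**Figure D4:**
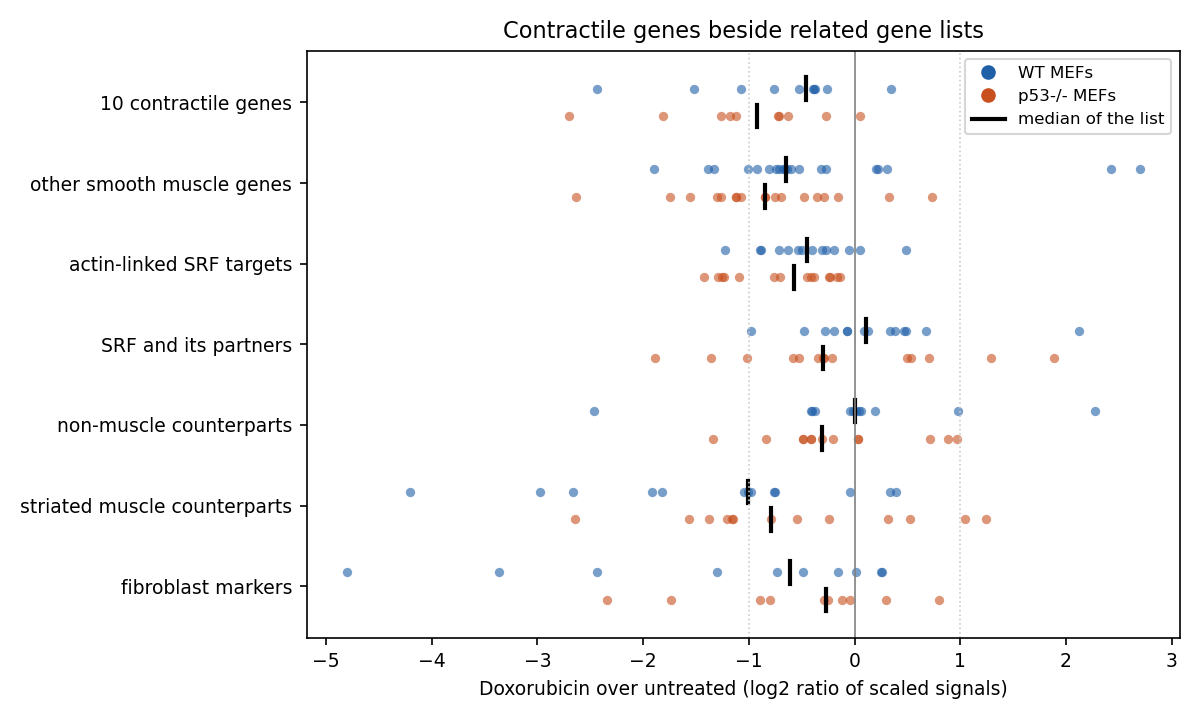
Log2 ratio of doxorubicin-treated over untreated MEFs (x axis) for every measured gene of 7 groups, with WT MEFs in blue, p53-/- MEFs in orange, and the median of each group as a black bar (dotted lines, 2-fold). The contractile genes have medians of -0.46 and -0.92, beside -0.65 and -0.85 for other smooth muscle genes and 0.00 and -0.31 for the non-muscle counterparts.

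Of the non-muscle relatives of the members, 1 of 12 measured genes was at least 2-fold lower and 1 higher in WT MEFs, and the median log2 ratio was 0.00. Without p53, 1 of 13 was lower and 0 were higher, with a median of -0.31. These counts are near the background of all genes given above. Actg1, a cytoplasmic actin, had 0.06 and -0.49 at its brightest probe, while its 4 other probes ranged from -0.57 to -0.13 in WT and from -1.23 to -0.50 in p53-/- MEFs. Myh10, a non-muscle myosin heavy chain, fell in both genotypes, at -2.46 and -1.34. Myh14, another one, had 2.28 and 0.72, and its second probe, well above background on 3 arrays, gave -0.43 and -0.10. Tagln3 was not well above background in untreated WT MEFs.

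The striated muscle relatives were measured for 13 of 21 genes in each genotype. In WT MEFs, 7 of the 13 were at least 2-fold lower and 0 were higher, beside 10.4% and 11% of all genes. The median was -1.01. Without p53, 6 were lower and 2 higher, beside 6.89% and 9.24% of all genes, with a median of -0.79. These counts cover genes well above background on both arrays compared. Myh4 and Myh6 were well above background only after treatment. They were at least 2.58-fold and 3.35-fold higher in WT, and 2.09-fold and 2.47-fold higher in p53-/- MEFs. Myh2 and Myog were well above background only in untreated WT MEFs. With treatment there, they were at least 2.97-fold and 1.49-fold lower. Actc1, the cardiac actin, had -4.20 and -2.64. Myl1, a skeletal myosin light chain, had -2.98 and -1.15. Its deposited signals of 72.6 in treated WT and 231 in untreated p53-/- MEFs were below the brightest negative control spots there, at 77.5 and 250.1. With another background correction (normexp), the WT log2 ratios were -1.997 for Myl1 and -3.36 for Actc1. Myh8, the perinatal skeletal myosin, had -0.75 and 1.25, on deposited signals of 131 to 400.4. The lowest of these came from untreated p53-/- MEFs, where a negative control spot reached 250.1. Myod1 and Myf5, which set the skeletal muscle fate, were not well above background on any array.

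Actin-linked genes that SRF is known to control were all measured. In WT MEFs, 1 of 14 was at least 2-fold lower and 0 were higher, beside 10.4% and 11% of all genes. The median was -0.45. The p53-/- MEFs had 5 of 14 lower and 0 higher, beside 6.89% and 9.24% of all genes. The median there was -0.58, and all 14 log2 ratios were below 0. Actn1, the actin crosslinker alpha-actinin 1, had 0.49 and -1.25. Ankrd1, a nuclear cofactor of strained muscle, had -1.22 and -0.13. Palld, the actin scaffold palladin, had -0.50 and -1.23.

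Markers of the cells that the cultures could hold moved as well. All 10 fibroblast markers were well above background on all 4 arrays. Their summed scaled signals were 837 and 683 without and with doxorubicin in WT MEFs, and 689 and 563 in p53-/- MEFs. Those of the 10 contractile genes were 600.4 and 419 in WT MEFs, and 642 and 375 in p53-/- MEFs. At least 2-fold lower were 4 of the 10 fibroblast markers in WT and 2 in p53-/- MEFs, beside 10.4% and 6.89% of all genes. Lum, the matrix proteoglycan lumican, had log2 ratios of -4.81 and -2.34. Pdgfra, a growth factor receptor of mesenchymal cells, had -3.36 and -0.89. Dcn, or decorin, had -1.30 and 0.30.

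Of 6 endothelial markers, 2 were well above background on all 4 arrays, and Cdh5 and Tie1 on none. The summed signals of the 6 ranged from 2.39 to 4.23. The brightest Kdr probe made up 4.09 of the 4.23 in treated WT MEFs, and 2.20 of the 2.39 in treated p53-/- MEFs. Kdr had 0.20 in WT and -0.35 in p53-/- MEFs at its brightest probe, while its second probe, also well above background on all 4 arrays, gave 2.68 and 1.70. Pecam1 had -0.62 and -0.13. Of 6 epithelial markers, 3 were well above background on all 4 arrays, and Epcam and Cldn4 on none. Their summed signals were 7.35 and 7.58 without and 29.8 and 35.1 with doxorubicin, in WT and p53-/- MEFs. The keratins made up this change, with log2 ratios of 3.51 and 2.91 for Krt19 and 0.91 and 1.91 for Krt18, while Krt8 had -0.46 and 0.32. Of 8 leukocyte markers, 5 were well above background on all 4 arrays. Their summed signals ranged from 14.7 to 20.04. Differences between genotypes were ranked among the genes of this list measured on all 4 arrays. The largest were those of Itgam (0.46 and -0.37), Csf1r (-0.63 and 0.06) and Emr1 (0.20 and 0.58). Cd68 was well above background only in treated WT MEFs and was not ranked. Its signal there was at least 4.25-fold higher than in untreated WT MEFs, and at least 3.23-fold higher than in treated p53-/- MEFs. The other probes of Csf1r gave -0.76 and 0.13 in WT, and 0.31 and -0.31 in p53-/- MEFs. The second probe of Emr1 gave 0.48 and 0.26, so that the sign of its difference between genotypes turned. Another Itgam probe measured on all 4 arrays, with deposited signals of 77.2 to 110.4, gave 0.70 and -0.15. In untreated WT MEFs, the brightest Itgam probe made up 12.7 of the summed 15.9. The part of other cell types in the changes of the contractile genes was not tested.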

How the data were processed

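Total RNA of 4 MEF samples, 1 per condition, was measured on one-color arrays of 1 slide. The authors read the arrays with Agilent Feature Extraction 10.7.3.1, and the deposited intensity of each spot is background-subtracted, corrected for trends within the array and not normalized between arrays. Deposited flags (other values, coded 0 or 1) mark spots well above background, saturated (0 spots) or outliers, which were left out. A deposited table of all arrays holds the same intensities. Here, repeat spots were averaged on the log2 scale, and each array was scaled to its 75th percentile (signals of 1819 to 2421). Each gene was read from its brightest probe by mean, measured where well above background on the arrays compared. Among 153 negative control spots, the brightest reached 77.5 to 250.1. Samples were grouped by their labels, and no p-value was calculated, since the number of arrays limits the precision. The members and lists were chosen with earlier results of these data known. Named were all members, Trp53, all SRF partners and the 3 genes nearest to 4 members. Also named were the 3 genes of each other list with the largest difference between genotypes, among those measured on all 4 arrays. Mylk, Myl9, Lmod1, Kcnmb1, Tagln3, Myod1, Myf5 and the markers well above background on no array were named after their values were seen. So were Myh2, Myh4, Myh6, Myog and Cd68. Probes are placed as in the files (mm9). Promoters came from a RefSeq table. The gene Myl12a was matched by a synonym. Python 3.11.15 (numpy 2.4.6, pandas 2.3.3) was used, with R 4.3.3 and limma 3.58.1 for normexp (offset 50) as an alternative. The steps were tested on simulated data.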

Additional observations from a re-analysis of the deposited data

Results flagged for a closer look

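Each of the following results had doxorubicin log2 ratios of opposite sign in WT and p53-/- MEFs, both beyond 2 SD of repeat spots (0.23). With 1 array per condition, the differences between the genotypes were not tested. The share of all genes or probes with such opposite signs is not given here. Among the contractile genes these were 3 of the 5 probes of Tpm1. The difference of the log2 ratios, WT minus p53-/-, was 1.06 for the Tpm1 probe listed under variant 2, 1.66 for that under variant 5 and 1.04 for that under variant 9.

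In each list but that of SRF and its partners, the genes measured on all 4 arrays were ranked by their difference between genotypes. Of the other genes flagged, all but Elk3 were named because they ranked among the first 3 in their list. Their appearance here follows in part from that choice. Among these other genes, the difference was 0.67 for Elk3, 4.01 for Ppp1r14a, 1.74 for Actn1 and 0.83 for Itgam. These were higher with doxorubicin in WT and lower in p53-/- MEFs. The difference was -2.06 for Pdlim3, -1.997 for Myh8, -1.602 for Dcn and -0.78 for Krt8, which were lower with doxorubicin in WT and higher in p53-/- MEFs. The other probes of Elk3 measured on all 4 arrays did not have opposite signs beyond that spread, with -0.21 and 0.17 in WT, and -0.52 and -0.56 in p53-/- MEFs. The second probe of Krt8 gave a difference of -0.63 (-0.43 in WT and 0.21 in p53-/- MEFs), and another probe of Itgam gave 0.86 (0.70 and -0.15). The Myh8 signal without p53 and doxorubicin was 131, on an array where a negative control spot reached 250.1, and its second probe was well above background on no array.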

How the results depend on the processing

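No paired analysis was possible because the result comes from no test and each condition has 1 array. For the same reason no replicate could be left out, and a block for the slide could not be fitted with 1 slide. Without the filter on dim probes, with probes required to be brighter than the brightest negative control spot, and with the deposited table of intensities, every value of the 10 genes stayed as it was. With normexp and with the mean of a gene's probes, all 50 member values (10 genes in 5 comparisons) kept their sign, as did 48 with scaling to the array median and 46 with quantile normalization. Of values over 2-fold, 0 changed sign under any of these alternatives.

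Scaling to the array median moved the median of the 10 genes from -0.46 to -0.74 in WT and from -0.92 to -1.22 in p53-/- MEFs. It also moved the share of higher among all genes called 2-fold from 51.4% to 32.1% in WT, and from 57.3% to 31.2% in p53-/- MEFs. Quantile normalization moved the median log2 ratio of p53-/- over WT, doxorubicin-treated, from -0.13 to 0.022. In that comparison, quantile normalization, the mean of the probes and a 1.5-fold threshold each gave 1 gene higher in place of 0 (Smtn). There, 2 genes were lower at 1.5-fold and 0 at 3-fold, in place of 1. For the difference between genotypes, the count above 0 past the threshold was 0 with quantile normalization, with the mean of the probes and at 3-fold, and 2 at 1.5-fold, in place of 1 (Tpm1). With doxorubicin, 1 gene was lower at 3-fold in WT MEFs in place of 3. In p53-/- MEFs, 8 were lower at 1.5-fold and 2 at 3-fold in place of 5. The share of all genes past 1.5-fold or 3-fold is not given here, so the counts at those thresholds have no background beside them. The causes were not tested. Low signals limit the ratios of dim genes, Myh11 among the 10, where normexp gave -1.998 in WT in place of -2.44.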
